A study of Mus musculus with 8 samples.

Results

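The Notch pathway was represented here by 10 genes chosen by name, 10 of the 24849 genes listed in the FPKM files: the receptors Notch1, Notch2 and Notch3, the ligands Dll1, Dll3 and Jag1, the DNA-binding factor Rbpj, and the targets Hes1, Hes5 and Hey1. Their FPKM (fragments per kilobase of transcript, adjusted for how many fragments each library mapped) were followed in 8 polyA-selected RNA libraries from mouse embryonic stem cells (mESCs) of the MPI-II line, strain 129S2/SvPas. The 4 conditions, with 2 biological replicates each, were wild type (WT) and Pcgf5-/- mESCs at day 0, when they were kept on feeder cells with serum, LIF and the 2i inhibitors CHIR99021 and PD0325901, and the same genotypes at day 6 of neural differentiation in N2B27 medium. PCGF5 is a subunit of a Polycomb complex that places ubiquitin on histone H2A. The Pcgf5-/- cells were made with TALENs against the second exon of Pcgf5, with drug selection and picking of single colonies, and whether the 2 replicates came from 1 clone or from separate clones is not given in the sources used here. If they shared a clone, p-values measure only the spread between cultures.

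Notch signalling passes between neighbouring cells. A Delta or Jagged ligand on one cell binds a Notch receptor on the next, the receptor is cleaved, and its intracellular part enters the nucleus, where it joins RBPJ on DNA and switches on repressors of the Hes and Hey families. In the developing nervous system this circuit is known for keeping neural progenitors undifferentiated while neighbours that express proneural factors and Delta ligands become neurons, and Hes5 is widely used as a readout of it.

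The sequences just upstream of Hes5 and of Lfng are shown because both genes were lower in Pcgf5-/- cells at day 6, as described further on, and because both windows hold 2 copies of TGGGAA, the core of the motif that RBPJ binds. Each is the 250 bases before an annotated start, from the RefSeq promoter table of GRCm38.p6, placed on NCBIM37 (mm9) by exact match at chr4:154334782-154335031, plus strand, and at chr5:141083045-141083294, plus strand. Capitals mark TGGGAA, or TTCCCA where the motif lies on the other strand.
Hes5: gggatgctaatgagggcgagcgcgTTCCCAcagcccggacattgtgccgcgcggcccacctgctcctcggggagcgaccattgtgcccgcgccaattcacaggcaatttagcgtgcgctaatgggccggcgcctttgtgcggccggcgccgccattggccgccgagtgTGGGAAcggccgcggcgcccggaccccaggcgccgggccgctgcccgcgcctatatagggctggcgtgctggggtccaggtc
Lfng: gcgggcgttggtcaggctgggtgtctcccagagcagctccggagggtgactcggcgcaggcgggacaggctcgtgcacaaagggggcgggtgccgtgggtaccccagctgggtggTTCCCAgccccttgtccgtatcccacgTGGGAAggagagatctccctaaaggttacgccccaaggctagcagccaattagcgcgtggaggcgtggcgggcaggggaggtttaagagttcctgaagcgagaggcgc

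In Hes5 the copies lay 226 to 221 and 82 to 77 bases before the start, and both were preceded by G on their own strand, giving GTGGGAA. Of 32851 mouse promoter windows of this length, 21.6% held TGGGAA on either strand and 2.77% held it at least 2 times. The longer GTGGGAA, which contains the shorter motif, was found in 5.42% of windows and at least 2 times in 0.161%. Of the 10 Notch pathway genes, 8 had a window in the table, Hes1 and Hey1 being absent from it. Beside Hes5, TGGGAA was found only upstream of Rbpj, with 2 copies in the window chr5:53981335-53981584 and 1 in the overlapping window chr5:53981475-53981724, both of which lie inside the span that the files give to Rbpj. Among the 59 further pathway genes with a window, Lfng, Kat2a and Aak1 had one with 2 copies. Kat2a was called higher in Pcgf5-/- cells at day 6. A match of letters is a description of the sequence, and binding was not measured.

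The targeted gene followed its label at both days. Pcgf5 was listed at 5.18 and 3.63 FPKM in WT and at 1.28 and 1.84 FPKM in Pcgf5-/- mESCs at day 0, and at 9.16 and 5.06 FPKM in WT against 0.669 and 0.457 FPKM in the mutant cells at day 6. The groups did not overlap at either day, and the log2 difference was -1.07 (SE 0.28, limma adjusted p = 0.105) at day 0 and -2.33 (SE 0.28, limma adjusted p = 0.00421) at day 6. Depth can be read from these files only as a ratio between libraries, and the deepest library had 1.30 times the depth of the shallowest. Replicates correlated across genes with r from 0.972 to 0.974 on the log2 scale.

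Cell type markers were summed per library to see what the cells were. The 10 neural progenitor markers summed to 234–290 FPKM in WT and 226–316 FPKM in Pcgf5-/- mESCs at day 0, and to 777–840 and 341–353 FPKM at day 6. Vim made up most of the day 0 sums. In Pcgf5-/- cells Vim went from 201 and 282 FPKM at day 0 to 155 and 134 FPKM at day 6, while each other marker of this list rose. Sox1, for one, rose from 0.295 and 0.729 FPKM to 22.6 and 28.3 FPKM. Slc1a3 alone was higher in Pcgf5-/- cells than in WT at day 6. The 9 neuronal markers reached 372–528 FPKM in WT but 175–193 FPKM in the Pcgf5-/- libraries of day 6, against 162–216 FPKM over the 4 libraries of day 0. This sum holds opposite changes in Pcgf5-/- cells, where Tubb3 went from 50.5 and 65.7 FPKM at day 0 to 96.7 and 85.4 FPKM, and Stmn2 from 90.0 and 92.1 FPKM to 36.2 and 32.3 FPKM. The 10 markers of naive pluripotency stood at 1141–1232 FPKM at day 0, and at 65.3–137 FPKM in WT and 434–452 FPKM in the Pcgf5-/- libraries of day 6. Dppa3 rose in Pcgf5-/- cells, from 14.7 and 8.41 FPKM at day 0 to 63.2 and 86.3 FPKM at day 6, while each other marker of this list fell. So the day 6 libraries of the 2 genotypes differed in their balance of neural and pluripotency markers, and the part of this in the Notch pathway values was not tested. In bulk libraries, fewer cells of a type and less RNA per cell cannot be told apart. Each of these lists had all its genes above 1 FPKM in at least 1 library.

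Fibroblast markers, of which the feeder cells are a source at day 0, summed to 187–296 FPKM in 3 of the day 0 libraries, to 654 FPKM in replicate 2 of the Pcgf5-/- cells at day 0, and to 25.8–40.0 FPKM in WT and 15.2–17.7 FPKM in the Pcgf5-/- libraries of day 6. The 6 mural markers ran from 52.9 to 245 FPKM at day 0, and from 43.1 to 45.0 FPKM in Pcgf5-/- cells and 46.5 to 185 FPKM in WT at day 6. The 6 endothelial markers summed to at most 5.12 FPKM, with 2 of them above 1 FPKM in any library, the 7 mesendoderm markers to at most 10.2 FPKM, and the 5 extraembryonic markers to at most 18.2 FPKM, in a WT library of day 6.

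At day 0 Rbpj and Hes1 were the most abundant of the 10 genes, and the Delta ligands and Hes5 were near 0. On the FPKM scale, which is per length of transcript, the order of the means was the same in both genotypes: Rbpj, Hes1, Jag1, Notch1, Notch2, Notch3, Hey1, Dll3, Dll1 and Hes5. In WT the libraries of neighbours overlapped for Jag1 and Notch1 and for Hey1 and Dll3, and in Pcgf5-/- cells for Notch1 and Notch2. By day 6 in WT the order was Rbpj, Hes5, Hes1, Dll1, Notch3, Notch1, Notch2, Jag1, Dll3 and Hey1, with overlap between Hes5 and Hes1 and along the run from Notch1 to Dll3. In Pcgf5-/- cells at day 6 it was Rbpj, Hes1, Notch3, Notch2, Hes5, Notch1, Dll1, Dll3, Jag1 and Hey1, with overlap along the run from Notch2 to Dll1. Hes5 thus stood level with Hes1 in WT at day 6 and below it in Pcgf5-/- cells. The plot of FPKM by condition shows all 80 values.

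**Figure D1:**
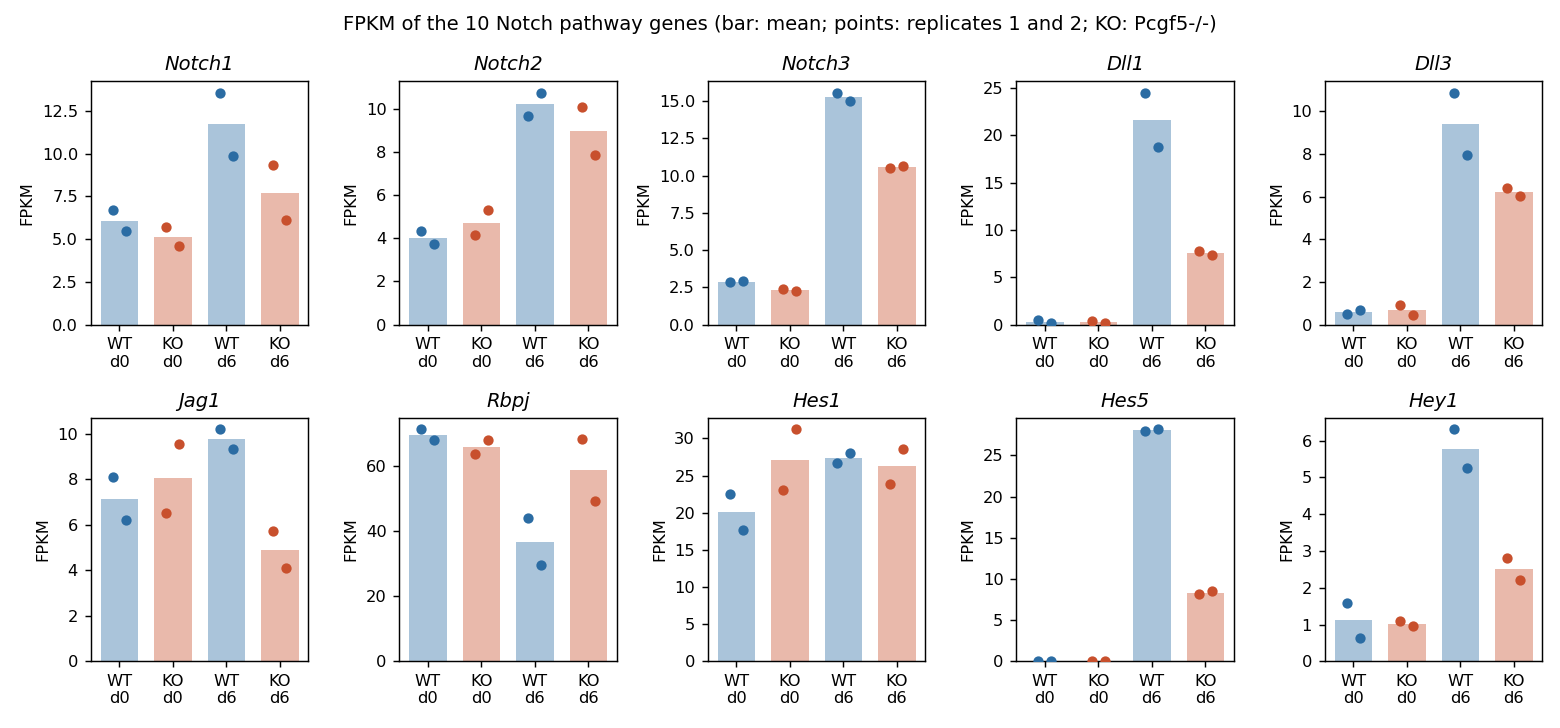
FPKM of the 10 Notch pathway genes in WT and Pcgf5-/- (KO) cells at day 0 (d0) and day 6 (d6). Each panel is 1 gene with its own FPKM axis starting at 0, bars are means of 2 replicates and points are the replicates. Hes5 and Dll1 rise from near 0 to means of 28.0 and 21.6 FPKM in WT and to 8.35 and 7.58 FPKM in Pcgf5-/- cells, while Hes1 stays between 17.6 and 31.2 FPKM throughout.

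Over the 6 days in WT, most of the 10 genes rose. All 10 genes passed the filter on low values, a mean above 1 FPKM in at least 1 condition, though Dll1, Dll3 and Hes5 passed only through day 6. The calls of these genes over the days are thus not independent of that filter. Of the 10, 7 were higher at day 6 (Notch1, Notch2, Notch3, Dll1, Dll3, Hes5 and Hey1), 1 was lower (Rbpj), and Jag1 and Hes1 did not pass the test. Among the 13214 genes tested, 34.2% were called higher and 16.2% lower in this comparison, by limma on log2(FPKM + 1) at an adjusted p under 0.05. The median log2 difference was 1.43 over the 10 genes and 0.22 over all genes tested. With median-of-ratios size factors the all-gene median was 0.06. Quantile normalization gives all libraries the same distribution, so its median of 0.00497 was near 0 by construction. Differences of the main fit are read beside the all-gene median, and the source of that shift was not tested. The share of higher genes among all calls, 67.8% as deposited, was 51.3% with quantile normalization and 55.8% with median-of-ratios size factors.

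The same comparison in Pcgf5-/- cells called 6 of the 10 higher (Notch2, Notch3, Dll1, Dll3, Hes5 and Hey1) and none lower, where 21.9% of all genes tested were called higher and 10.4% lower. All 6 were among the 7 called higher in WT. Notch1, Jag1, Rbpj and Hes1 did not pass the test in Pcgf5-/- cells. The share of higher genes among all calls was 67.9% here, 53.1% with quantile normalization and 57.8% with size factors. The all-gene median log2 difference was 0.129 here and 0.111 between the genotypes at day 0. It was 0.0265 and 0.0103 with size factors, and 0.025 and -0.00618 with quantile normalization.

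**Figure D2:**
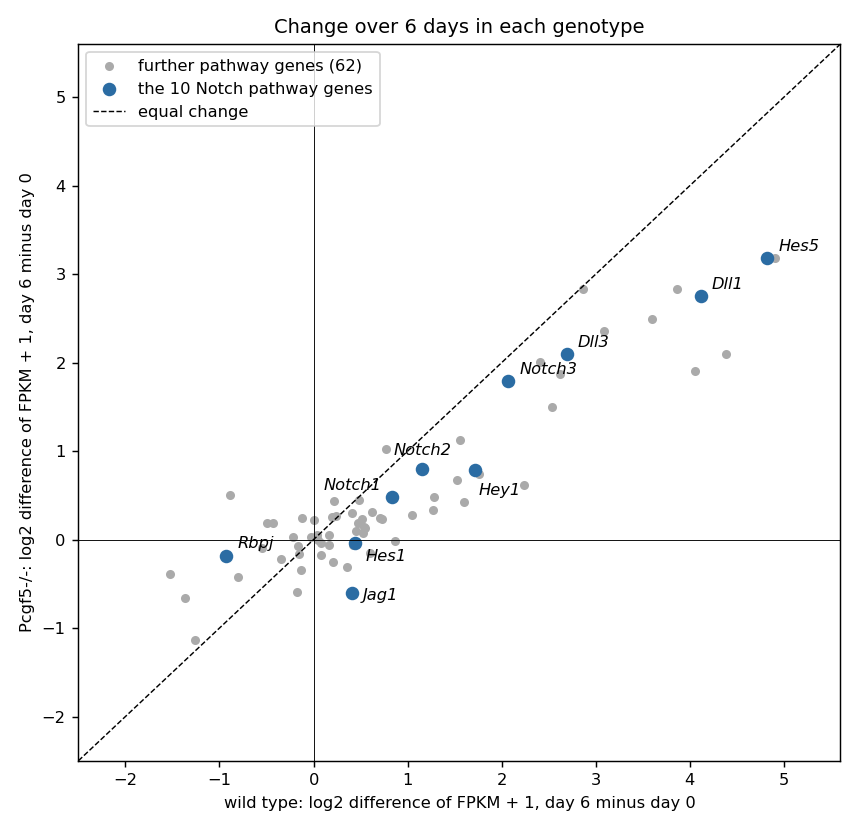
Change from day 0 to day 6 on the log2(FPKM + 1) scale in WT (horizontal axis) and Pcgf5-/- cells (vertical axis) for the 10 Notch pathway genes (blue) and 62 further pathway genes (grey). Points on the dashed line changed equally, and Hes5 (4.82 in WT and 3.18 in Pcgf5-/- cells) and Dll1 (4.12 and 2.75) lie below it.

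Between the genotypes none of the 10 genes was called at day 0, and 4 were called lower in Pcgf5-/- cells at day 6. At day 0 limma called 0 of the 10 at an adjusted p under 0.05, and 0 at an unadjusted p under 0.05, against 0.333% and 17.4% of all genes tested. Pcgf5-/- libraries lay above WT without overlap for Hes1 and below it for Notch3, while 34.6% of all genes lay above and 13.3% below in this way. At day 6, 4 of the 10 were called lower (Hes5, Dll1, Hey1 and Jag1) and 0 higher, against 7.05% and 9.57% of all genes tested. Both Pcgf5-/- libraries lay below both WT libraries for 7 of the 10 (Notch1, Notch3, Dll1, Dll3, Jag1, Hes5 and Hey1) and above them for Rbpj, where 28.8% of all genes lay below and 33.4% above, and Notch2 and Hes1 overlapped. The median log2 difference at day 6 was -0.53 over the 10 genes and 0.02 over all genes tested. Among all genes called at day 6, 57.6% were higher, a share that was 48.3% with median-of-ratios size factors and 69.6% with a pseudocount of 0.01.

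The number of calls at day 6 moved with single libraries. With replicate 1 of the Pcgf5-/- cells at day 6 left out, 1 of the 10 genes was called, and with replicate 2 of either genotype at day 6 left out, 2 were called. Without replicate 2 of the Pcgf5-/- cells at day 0, the library with the most fibroblast marker RNA, 3 were called, Hey1 falling to an adjusted p of 0.0504 by limma.

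**Figure D3:**
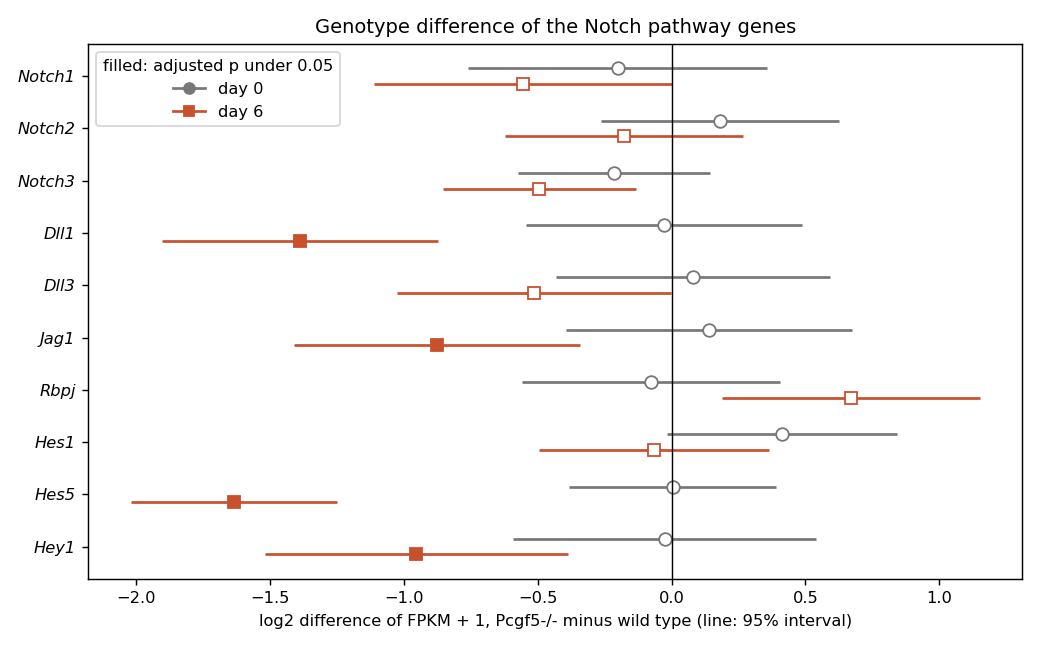
Difference between Pcgf5-/- and WT cells on the log2(FPKM + 1) scale for each of the 10 genes at day 0 (grey circles) and day 6 (red squares), with 95% intervals from the limma fit. Filled symbols have an adjusted p under 0.05, and the 4 filled squares are Dll1 (-1.39), Jag1 (-0.88), Hes5 (-1.64) and Hey1 (-0.95).

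Of the 3 receptors, Notch2 and Notch3 were called higher at day 6 in both genotypes and Notch1 in WT. Notch3, a receptor that neural progenitors express (chr17:32257838-32303797 in mm9), was at 2.83 and 2.92 FPKM in WT and 2.43 and 2.25 FPKM in Pcgf5-/- mESCs at day 0, and at 15.6 and 15.0 FPKM against 10.5 and 10.6 FPKM at day 6. Both genotypes rose without overlap between the days, by log2 differences of 2.07 in WT (SE 0.16, adjusted p = 3.5e-05) and 1.79 in Pcgf5-/- cells (SE 0.16, adjusted p = 0.000252) by limma. At day 6 the Pcgf5-/- libraries lay below WT with a log2 difference of -0.49 (SE 0.16, limma adjusted p = 0.0653), short of the threshold. It passed in 4 of 20 alternatives, among them a block for the replicate number within each day (limma adjusted p = 0.0452).

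Notch1, the founding receptor of the family (chr2:26313422-26359342), was at 6.70 and 5.45 FPKM in WT and 5.70 and 4.60 FPKM in Pcgf5-/- mESCs at day 0, and at 13.6 and 9.88 FPKM against 9.33 and 6.10 FPKM at day 6. The day 6 groups did not overlap, but the replicates were spread. With a block for the replicate number within each day the genotype difference passed (limma adjusted p = 0.0299), in 1 of 20 alternatives. In the main fit the log2 difference of -0.55 (SE 0.24, 95% interval -1.11 to 0.00276, limma adjusted p = 0.155) did not pass. The rise in WT did, at 0.84 (SE 0.24, limma adjusted p = 0.0206), but not with replicate 2 of day 0 (adjusted p = 0.104) or replicate 1 of day 6 (adjusted p = 0.135) left out, nor with quantile normalization (adjusted p = 0.161) or size factors (adjusted p = 0.0522) in the same limma fit.

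Notch2 (chr3:97817461-97954290), another full-length receptor, was at 4.31 and 3.75 FPKM in WT and 4.17 and 5.28 FPKM in Pcgf5-/- mESCs at day 0. It then reached 9.67 and 10.7 FPKM in WT and 10.1 and 7.84 FPKM in Pcgf5-/- cells, so the genotypes overlapped at both days. It rose in WT by 1.16 (SE 0.19, limma adjusted p = 0.00162) and in Pcgf5-/- cells by 0.80 (SE 0.19, limma adjusted p = 0.0162) on the log2 scale, the latter call being lost without replicate 1 of the Pcgf5-/- cells at day 0 (adjusted p = 0.0972) or at day 6 (adjusted p = 0.0944). The genotype difference of -0.18 at day 6 had a 95% interval of -0.62 to 0.27.

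Summed per library, the 3 receptors came to 12.1–13.8 FPKM at day 0, to 38.8 and 35.6 FPKM in WT at day 6, and to 29.9 and 24.6 FPKM in the Pcgf5-/- libraries of day 6. Notch3 made up 18.6–24.1% of that sum at day 0, 40.1 and 42.1% in WT at day 6, and 35.1 and 43.3% in Pcgf5-/- cells at day 6. The shift toward Notch3 thus appeared in both genotypes, and its share overlapped between them at day 6.

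The ligands changed in kind as well as in amount. Dll1, a Delta ligand carried by differentiating neural cells (chr17:15504318-15512787), was at 0.473 and 0.139 FPKM in WT and 0.424 and 0.135 FPKM in Pcgf5-/- mESCs at day 0, and at 24.5 and 18.8 FPKM against 7.76 and 7.40 FPKM at day 6. Dll1 was therefore almost silent before differentiation and reached a level in Pcgf5-/- cells that was 35.0% of that in WT. The log2 difference at day 6 was -1.39 (SE 0.22, limma adjusted p = 0.00907). The call was lost with a pseudocount of 0.01 (adjusted p = 0.161) or 0.1 (adjusted p = 0.0805) and without replicate 1 of the Pcgf5-/- cells at day 6 (adjusted p = 0.0565), in each case by limma with the same direction. The rise from day 0 was 4.12 in WT and 2.75 in Pcgf5-/- cells (SE 0.22 each).

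Dll3, a divergent Delta protein known to act inside the cell rather than as an activating ligand (chr7:29078574-29086804), was at 0.489 and 0.712 FPKM in WT and 0.935 and 0.474 FPKM in Pcgf5-/- mESCs at day 0. By day 6 it was at 10.9 and 7.94 FPKM in WT and 6.41 and 6.02 FPKM in Pcgf5-/- cells. The rise passed in both genotypes, by 2.69 and 2.09 (SE 0.22 each), while the genotype difference at day 6, -0.51 (SE 0.22, limma adjusted p = 0.152), did not pass although the groups did not overlap.

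Jag1, a Jagged ligand (chr2:136907187-136942256), had the highest FPKM of the ligands described here in every day 0 library. It was at 8.08 and 6.20 FPKM in WT and 6.52 and 9.56 FPKM in Pcgf5-/- mESCs at day 0. These bulk libraries can hold RNA of the feeder cells, and the part of that RNA in the Jag1 values was not tested. By day 6 Jag1 stood at 10.2 and 9.31 FPKM in WT and 5.71 and 4.11 FPKM in Pcgf5-/- cells. Jag1 thus lay above its day 0 values in WT and below them in Pcgf5-/- cells, although neither change over the days passed the test (0.41, limma adjusted p = 0.174, and -0.61, limma adjusted p = 0.0784). The day 6 difference between the genotypes was -0.88 (SE 0.23, limma adjusted p = 0.0382). That call was lost when any 1 of the 4 libraries of day 6 was left out, with limma adjusted p from 0.0795 to 0.169. The high Jag1 value of Pcgf5-/- cells at day 0, 9.56 FPKM, was in the library with 654 FPKM of fibroblast markers, and without that library the change over the days in Pcgf5-/- cells was -0.36 (limma adjusted p = 0.348). At day 6 the fibroblast marker sums were also lower in Pcgf5-/- cells, and their part in the Jag1 values was not tested.

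The 3 ligands summed to 7.05–10.2 FPKM at day 0, to 45.6 and 36.0 FPKM in WT at day 6, and to 19.9 and 17.5 FPKM in the Pcgf5-/- libraries of day 6. Jag1 made up 82.8–94.0% of the sum at day 0 and 22.4–28.7% at day 6. Dll1 was 53.8 and 52.1% of the ligand sum in WT at day 6 and 39.0 and 42.2% in Pcgf5-/- cells. Day 6 cells of both genotypes therefore carried mainly Delta transcripts, with a smaller Dll1 share in Pcgf5-/- cells.

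Rbpj, the DNA-binding factor through which Notch acts (chr5:53947018-54048684), went the other way. It was at 71.2 and 67.8 FPKM in WT and 63.7 and 68.0 FPKM in Pcgf5-/- mESCs at day 0, and at 44.0 and 29.5 FPKM in WT against 68.3 and 49.1 FPKM in the Pcgf5-/- libraries of day 6. It fell in WT, by 0.93 on the log2 scale (SE 0.21, limma adjusted p = 0.00688), whereas the change in Pcgf5-/- cells was -0.18 (95% interval -0.66 to 0.30). At day 6 it was the 1 gene of the 10 whose Pcgf5-/- libraries lay above WT, with a log2 difference of 0.67 (SE 0.21, limma adjusted p = 0.0633). That value passed with a block for the replicate number (limma adjusted p = 0.0421) and with such a block within each day (limma adjusted p = 0.0106). With replicate 1 of WT at day 6 left out, the log2 difference was 0.95. The genotype effect at day 6 exceeded that at day 0 by 0.75 (SE 0.30, limma adjusted p = 0.185).

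Of the 3 targets among the 10 genes, Hes5 had the largest difference between the genotypes at day 6. Hes5, a repressor of proneural genes in neural progenitors (chr4:154335032-154336480, plus strand, directly after the window printed above), was listed at 0 and 0.0516 FPKM in WT and at 0 and 0.0575 FPKM in Pcgf5-/- mESCs at day 0. After 6 days it reached 27.9 and 28.2 FPKM in WT and at 8.14 and 8.57 FPKM in Pcgf5-/- cells. The replicates lay close together at day 6, and the Pcgf5-/- mean was 29.8% of the WT mean. The log2 difference was -1.64 (SE 0.17, 95% interval -2.02 to -1.25, limma adjusted p = 0.00377), and it passed in all alternatives but the pseudocount of 0.01 (adjusted p = 0.295), over which the limma adjusted p ran from 0.00105 to 0.295. Since day 0 values were at or near 0, no fold change over the days is given, and on the log2(FPKM + 1) scale the rise was 4.82 in WT and 3.18 in Pcgf5-/- cells (SE 0.17 each).

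Hes5 was also the gene for which the genotype effect at day 6 differed from that at day 0, the 1 call of the 10, lower, where 1.75% of all genes tested were called lower and 1.34% higher. The difference was -1.64 (SE 0.24, limma adjusted p = 0.0260). It was lost in 8 of 19 alternatives, with limma adjusted p from 0.00905 to 0.504 over them, among them leaving out replicate 2 of any of the 4 conditions (adjusted p from 0.0689 to 0.104) or replicate 1 of the Pcgf5-/- cells at day 6 (adjusted p = 0.105). Dll1 followed with -1.36 (SE 0.32, limma adjusted p = 0.0585), then Jag1 with -1.02 (SE 0.33, limma adjusted p = 0.120) and Hey1 with -0.93 (SE 0.35, limma adjusted p = 0.165), none of them past the threshold.

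Hes1, a second repressor target with wide expression (chr16:30065443-30067882), was at 22.5 and 17.6 FPKM in WT and 23.0 and 31.2 FPKM in Pcgf5-/- mESCs at day 0, and at 26.7 and 28.1 FPKM against 23.9 and 28.6 FPKM at day 6. Its genotype difference at day 6 was -0.06, with a 95% interval of -0.50 to 0.37. At day 0 the Pcgf5-/- libraries lay above WT by 0.41 (SE 0.19, limma adjusted p = 0.307), and by 0.20 (limma adjusted p = 0.770) without the library that was highest in fibroblast markers. Hes5 was 1.04 and 1.00 times the level of Hes1 in WT at day 6 and 0.341 and 0.300 times in Pcgf5-/- cells, so the ratio of these targets separated the genotypes where Hes1 alone did not.

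Hey1, a Hes-related repressor (chr3:8663359-8667038), was at 1.58 and 0.642 FPKM in WT and 1.09 and 0.959 FPKM in Pcgf5-/- mESCs at day 0. It reached 6.30 and 5.25 FPKM in WT and 2.80 and 2.20 FPKM in Pcgf5-/- cells by day 6. The mutant mean at day 6 was 43.3% of the WT mean, with a log2 difference of -0.95 (SE 0.25, limma adjusted p = 0.0350). The call was weak, being lost in 9 of 20 alternatives, among them leaving out any 1 library of day 6 or of the Pcgf5-/- cells at day 0, with limma adjusted p up to 0.144. It rose over the days in WT by 1.71 (SE 0.25, limma adjusted p = 0.000758) and in Pcgf5-/- cells by 0.78 (SE 0.25, limma adjusted p = 0.0417). The latter call was lost in 13 of 20 alternatives, among them leaving out any 1 of 6 libraries. Those 13 also include the replicate block within each day, whose changes over the days are not the same quantity as in the main fit.

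Transcripts on the other strand overlap some of these genes in the GENCODE vM1 annotation: 0610009E02Rik and Gm13568 with Notch1, Gm17276 with Notch3, A930024N18Rik with Dll1, and RP24-89N4.5 with Hes5. Whether strand was used in the quantification is not given in the sources used here, so reads of such pairs may have been shared.

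Other components of the pathway were taken from a list of 74 further genes, of which 62 passed the filter. In the comparison of genotypes at day 0, 0 of 62 were called and 11, or 17.7%, had an unadjusted p under 0.05 by limma, close to the 17.4% of all genes tested. At day 6, 13 were lower and 4 higher in Pcgf5-/- cells, with a median log2 difference of -0.12. These are 21.0% and 6.45% of the 62, against 7.05% and 9.57% of all genes tested and their median of 0.02. All genes tested on chromosomes 6 and 11 had medians of 0.37 and 0.38 in that comparison. None of the 10 Notch pathway genes lies on either, and without the 6 further genes on them 13 of 56 were lower and 2 higher. With any 1 library of day 6 left out, 1 library remained in its group, and calls fell among the 62 and also among all genes tested. The cause of this fall was not tested.

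**Figure D4:**
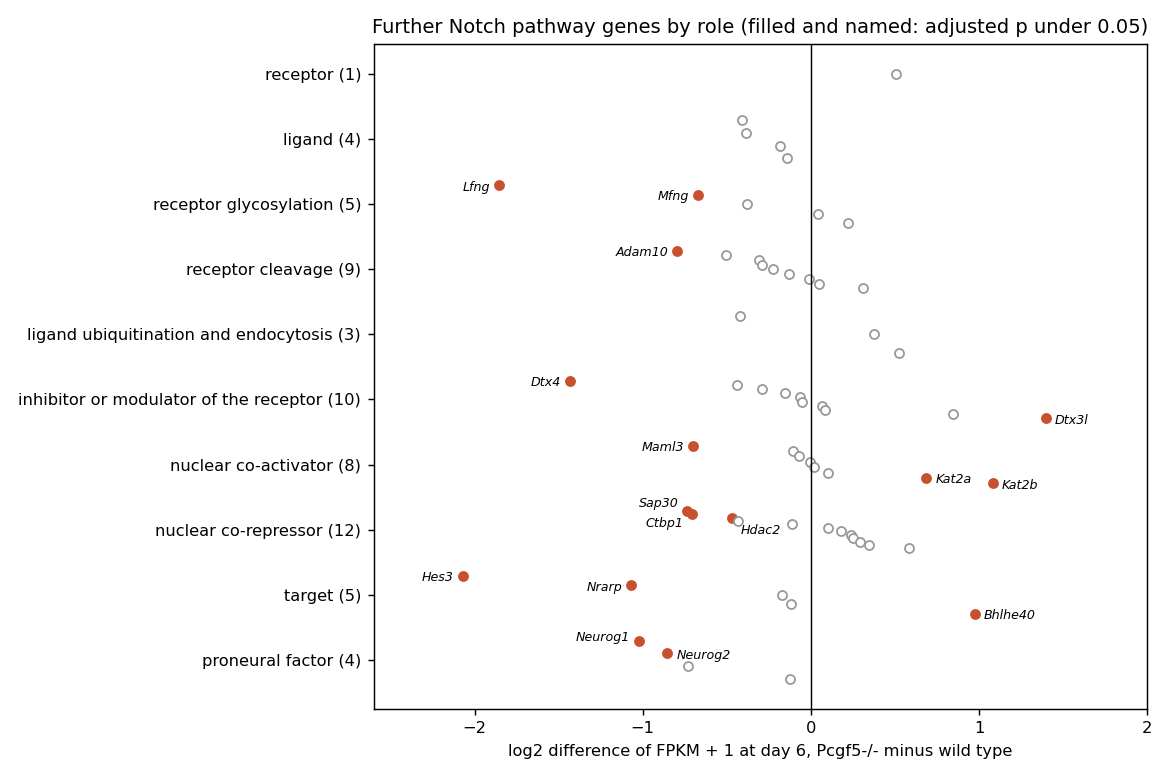
Difference between Pcgf5-/- and WT cells at day 6 on the log2(FPKM + 1) scale for 61 of the further pathway genes, grouped by role with the number of genes in each. Red filled points with names have an adjusted p under 0.05, and the points farthest below 0 are Hes3 (-2.07) and Lfng (-1.85).

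Enzymes that modify and cleave the receptors were among the lower genes. Lfng, the Lunatic fringe glycosyltransferase that alters how Notch responds to its ligands, and whose upstream window is printed above, was at 22.9 and 35.0 FPKM in WT and 6.13 and 8.24 FPKM in the Pcgf5-/- libraries of day 6 (log2 difference -1.85, limma adjusted p = 0.00758). Mfng, the Manic fringe enzyme, was at 8.53 and 8.36 FPKM in WT and 4.84 and 5.02 FPKM in Pcgf5-/- cells (-0.67, limma adjusted p = 0.0432). These were 2 of the 5 glycosylation genes tested, and Poglut1, the most abundant of them in the mean over all 8 libraries, was at 15.9 FPKM in WT and 16.4 FPKM in Pcgf5-/- cells at day 6. Of the 9 cleavage genes 1 was lower: Adam10, the protease that makes the ligand-dependent cut, was at 31.5 and 28.4 FPKM in WT and 18.0 and 15.7 FPKM in Pcgf5-/- cells (-0.79, limma adjusted p = 0.0137). Psenen, a gamma-secretase subunit and the most abundant of these, was at means of 54.5 and 47.3 FPKM and overlapped.

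None of the 4 other ligands and none of the 3 genes of ligand ubiquitination and endocytosis passed the test at day 6. Jag2, the most abundant of those ligands, had means of 3.82 FPKM in WT and 3.40 FPKM in the Pcgf5-/- libraries of day 6, and Mib1, the ubiquitin ligase that ligands need in order to signal, had means of 10.5 and 7.94 FPKM. Notch4, the 1 further receptor, was low, at means of 0.612 FPKM in WT and 1.31 FPKM in Pcgf5-/- cells.

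Modulators and nuclear partners went in both directions. Dtx4, a Deltex ubiquitin ligase, was at 43.7 and 42.1 FPKM in WT and 16.2 and 14.3 FPKM in the Pcgf5-/- libraries of day 6 (-1.43, limma adjusted p = 0.00944), while its relative Dtx3l was at 2.23 and 1.44 FPKM in WT and 8.24 and 4.91 FPKM in Pcgf5-/- cells (1.40, limma adjusted p = 0.0123). They were the 2 calls among 10 modulators, of which Dtx3, the most abundant in the mean over all 8 libraries, was at 35.1 FPKM in WT and 25.7 FPKM in Pcgf5-/- cells. Among 8 co-activators, Maml3, a Mastermind protein, was lower (-0.70), and the acetyltransferases Kat2a (0.69) and Kat2b (1.08) were higher, Kat2a lying on chromosome 11. At day 0 Kat2a also lay above WT without overlap, by 0.69 (limma adjusted p = 0.0622), while Kat2b and Dtx3l differed by -0.05 and 0.0028. Snw1, the most abundant co-activator, had means of 74.2 and 75.2 FPKM. Among 12 co-repressors 3 were lower: Sap30 (-0.73), Hdac2 (-0.47) and Ctbp1 (-0.70), and Hdac1, the most abundant over all 8 libraries, lay above WT at 86.6 and 93.5 FPKM against 72.0 and 79.0 FPKM without passing the test (limma adjusted p = 0.198).

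Of the 5 further genes listed here as targets and tested, 2 were lower and 1 higher. Whether each of them responds to Notch in these cells was not tested. Hes3, a Hes repressor of early neural progenitors, was at 14.3 and 17.0 FPKM in WT and 2.43 and 3.56 FPKM in the Pcgf5-/- libraries of day 6 (-2.07, limma adjusted p = 0.00377), and was listed at 0 in 3 of the day 0 libraries. Nrarp, a target that feeds back on the Notch complex, was at 43.9 and 37.2 FPKM in WT and 18.9 and 18.6 FPKM in Pcgf5-/- cells (-1.07, limma adjusted p = 0.0117). Both fell below WT, while Bhlhe40, a repressor on chromosome 6, was higher at 10.5 and 10.5 FPKM against 5.81 and 4.01 FPKM in WT (0.97, limma adjusted p = 0.0307). Its Pcgf5-/- libraries lay above WT without overlap at day 0 as well, by 0.85 (SE 0.24, limma adjusted p = 0.124). Ccnd1, the cyclin D1 gene and the most abundant target, had means of 75.0 and 69.0 FPKM and overlapped, and Hes6 had means of 23.5 and 20.3 FPKM (-0.17, limma adjusted p = 0.682).

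Neurog1 and Neurog2, proneural transcription factors that drive neurogenesis and that Hes proteins repress, were lower. Neurog1 was at 20.3 and 10.5 FPKM in WT and 6.81 and 6.63 FPKM in Pcgf5-/- cells (-1.02, limma adjusted p = 0.0405). Neurog2 was at 2.65 and 1.34 FPKM in WT and 0.873 and 0.398 FPKM in Pcgf5-/- cells (-0.85, limma adjusted p = 0.0488). Only WT at day 6, with a mean of 1.995 FPKM, took Neurog2 past the filter on low values. The mean in Pcgf5-/- cells at day 6 was 0.636 FPKM. The call of Neurog2, which is counted among the lower genes, is thus not independent of that filter. Neurod4 (-0.73, limma adjusted p = 0.0822) and Neurod1 (-0.12, limma adjusted p = 0.777), factors of the same family, did not pass the test.

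Over the days, 26 of the 62 further genes rose and 6 fell in WT, and 16 rose and 2 fell in Pcgf5-/- cells. That is 41.9% and 9.68% in WT, where all genes tested had 34.2% and 16.2%, and 25.8% and 3.23% in Pcgf5-/- cells, where they had 21.9% and 10.4%. Some that rose, among them Lfng, Dtx4, Maml3, Hes3, Neurog1, Neurod1 and Neurod4, had means under 1 FPKM at day 0 in both genotypes. They passed the filter on low values only through day 6, so their calls over the days are not independent of it. The genotype effect differed between the days for 5, or 8.06% against 1.75% of all genes tested, all lower at day 6 relative to day 0: Lfng (-2.28, limma adjusted p = 0.0315), Hes3 (-2.15, limma adjusted p = 0.0243), Dtx4 (-1.72, limma adjusted p = 0.0422), Mfng (-1.63, limma adjusted p = 0.0299) and Ctbp1 (-1.17, limma adjusted p = 0.0305). For Mfng the Pcgf5-/- libraries lay above WT at day 0, at 2.53 and 3.26 FPKM against 0.848 and 1.16 FPKM. With replicate 2 of any of the 4 conditions, or replicate 1 of the Pcgf5-/- cells at day 6, left out, these calls were lost. Most calls among all genes tested in this comparison were lost as well.

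The profiles most like each Notch gene over the 8 libraries are given as a description, since the libraries fall into day 0 and day 6 clusters that any gene of differentiation shares. By Pearson correlation of log2(FPKM + 1), Dll1 was closest to Ttc9, Nrarp and Dpysl4 (r = 0.999 each), Hes5 to Plxnb1, Slc35f1 and Sp8 (r = 0.999 each), Dll3 to Nhlh1, Gpr157 and Tmem229a (r = 0.994 to 0.996), and Notch3 to Lpar4, Sall2 and Ptbp2 (r = 0.996 each). Notch2 was closest to Inppl1, Npcd and Pcnx (r = 0.991 to 0.996), Notch1 to Fam168a, Akap5 and Rufy3 (r = 0.965 to 0.990), and Hey1 to Ubqln2, Whrn and Hnrnpll (r = 0.984 to 0.994). Rbpj was closest to Nid2, Etv5 and Jade1 (r = 0.980 to 0.981), Jag1 to Vim, Cpeb2 and Sh3pxd2a (r = 0.930 to 0.962), and Hes1 to Sept9, Pofut2 and Nfkbie (r = 0.942 to 0.960). Among the 10 themselves, Dll1 and Hes5 had the highest correlation (r = 0.995), and Rbpj was negatively correlated with each of the other 9 (r from -0.81 to -0.27).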

How the data were processed

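PolyA-selected RNA from WT and Pcgf5-/- mESCs at day 0 and day 6 was sequenced in 8 libraries, grouped by their labels. The authors quantified reads on mm9 and deposited FPKM per gene, with confidence limits and no read counts. Their submitters' processing notes name TopHat2 2.0.4 and Cufflinks 2.1.1. Files hold no depth, so no counting interval can be given. Relative depth was read from the low FPKM values.

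Here log2(FPKM + 1) was fitted with limma 3.58.1 (R 4.3.3) over all 8 libraries, with 4 condition means, a variance trend and no replicate block, for the 13214 genes with a mean above 1 FPKM in at least 1 condition. Benjamini-Hochberg adjustment ran over all of them, with calls at an adjusted p under 0.05. Fold changes of low genes are understated on this scale. The fit was run on simulated data with independent noise and changes planted in Pcgf5-/- cells at day 6 alone. That simulation held no shifts of single libraries, so it does not bear on how calls move when a library is left out. The correlation of replicate differences between conditions was 0.102 and 0.387 within day 0 and within day 6, and -0.0765 to -0.0221 between days. The paper's methods speak of paired Pcgf5-/- and WT samples without saying what pairs them, and the labels give only numbers. Pairing within a day is therefore not excluded. The main fit took no pairing, and replicate blocks were run as alternatives. The alternatives were other pseudocounts, filters and scalings, replicate blocks, only the compared groups, no variance trend, no genes of chromosomes 6 and 11, and each library left out.

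The 10 genes and all lists were chosen with earlier results of these data known. Text names the 10 genes, Pcgf5, further pathway genes called in a genotype comparison or in the difference between days, the most abundant gene of each role, and the 3 most correlated genes of each member. The values of 1 further pathway gene are not reported here, though it is in the counts. Promoter windows came from RefSeq (GRCm38.p6), matched by symbol for 8 of 10 members and 59 of 74 further genes. Gene coordinates are those of the files, and gene overlaps come from GENCODE vM1.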

Additional observations from a re-analysis of the deposited data

Results flagged for a closer look

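Hes5 drew attention because its genotype effect at day 6 minus that at day 0, tested as an interaction in the limma fit, was -1.64 on the log2(FPKM + 1) scale, with Pcgf5-/- libraries at 8.14 and 8.57 FPKM against 27.9 and 28.2 FPKM in WT at day 6 and all 4 day 0 libraries at or below 0.0575 FPKM. With groups of 2 libraries, no single library could be tested as an outlier.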

How the results depend on the processing

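For the single genes, 908 of the recomputed values kept direction and side of the threshold, 47 no longer passed, 15 newly passed and 20 changed sign. For the counts of calls, 160 stayed within 1.5 times and 38 did not. Both tallies include changes over the days from the replicate block within each day, which are a different quantity there, as described below. The sign changes were of small values that did not pass: at day 0 Dll3 (-0.067), Jag1 (-0.013) and Hes5 (-0.041) with quantile normalization, and Hey1 with a pseudocount of 0.01 (0.020) or 0.1 (0.0080). With each library left out, values at day 0 ran from -0.21 to 0.16 for Dll1, -0.12 to 0.28 for Dll3, -0.10 to 0.39 for Jag1, -0.036 to 0.044 for Hes5 and -0.35 to 0.30 for Hey1, those of Hes1 at day 6 from -0.19 to 0.061, and those over the days in Pcgf5-/- cells from -0.42 to 0.052 for Rbpj and -0.25 to 0.17 for Hes1.

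Of the 4 calls among the 10 genes at day 6, 1 was made with a pseudocount of 0.01, 2 with 0.1, 2 with no filter, and 1 to 4 with each library left out. The 17 calls among further pathway genes became 9 and 11 with those pseudocounts and 1 to 15 with each library left out, and the 18 over the days in Pcgf5-/- cells became 11 to 16. For the difference between the days, the 1 call became 0 with either small pseudocount and with no filter, 2 with a pseudocount of 5 or no variance trend, and 0 to 1 with each library left out. The 5 calls of further genes became 2 with either small pseudocount, 0 with no filter, and 0 to 4 with each library left out. The cause of these moves was not tested.

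The labels give same-numbered samples only a number, while the paper's methods speak of paired samples, and within day 6 their differences correlated at 0.387. With the replicate block the 10 genes gave 0, 5, 8, 6 and 2 calls (genotype at day 0, at day 6, days in WT, days in Pcgf5-/- cells, difference between the days) and further genes 0, 18, 34, 19 and 4, Rbpj passing at day 6 (limma adjusted p = 0.0421). With the replicate block within each day the 10 genes gave 0, 7 and 3 calls (genotype at day 0, at day 6, difference between the days). Further genes then gave 2, 21 and 9, and all genes tested 282, 3235 and 1167. Rbpj, Notch1 and Notch3 then passed at day 6 (limma adjusted p = 0.0106, 0.0299 and 0.0452). For Rbpj in Pcgf5-/- cells, this block gave 0.082 over the days, against -0.18 in the main fit. The block takes off an offset between replicates separately at each day. Its change over the days thus refers to the lower-numbered replicates, not to the means, and is not the same quantity.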
